A study of Mus musculus with 28 samples.

Results

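The 10 genes described here encode the tenascins Tnc, Tnn and Tnxb, the thrombospondins Thbs1, Thbs2, Thbs3, Thbs4 and Comp (also named thrombospondin 5), periostin (Postn) and Sparc (osteonectin). They are a family list given by symbol, drawn up with earlier results of these data known, and all 10 were found among the 54429 genes of the count table. The source was 28 sequencing libraries of polyadenylated RNA from O9-1, an established mouse cell line of cranial neural crest origin. There are 4 libraries for every culture type at 21% O2 (called normoxic) and 3 for every type at 0.5% O2 (called hypoxic). Proliferating cells grew in medium conditioned by STO feeder cells, with 15% serum, 25 ng/ml bFGF and 5 ng/ml LIF. Chondrocyte cultures were kept for 3 days in the osteoblast medium and then for 7 days as micromasses on matrigel, in medium with 5% serum, insulin-transferrin-selenium, 0.1 µM dexamethasone, 10 ng/ml TGF-beta3 and 50 ng/ml BMP-2. Osteoblast cultures received 10% serum, 10 mM beta-glycerophosphate, 0.1 µM dexamethasone and 100 ng/ml BMP-2 for 10 days, and smooth muscle cultures received 10% serum with no added factor for 3 days. All groups are the same cell line, and the labels do not say whether replicates were separate cultures, so the p-values measure the spread between these libraries, which may be technical. The question given in the design text is how well the cells can differentiate at either oxygen level.

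The proteins of these genes are secreted into the extracellular matrix, where most of them modulate how cells attach and signal rather than bear load. Tenascins form oligomers that bind fibronectin and integrins, with tenascin-C and tenascin-W (the product of Tnn) known from condensing mesenchyme, perichondrium and periosteum, and tenascin-X (Tnxb) from the collagen fibrils of skin and tendon. Thrombospondin 1 and thrombospondin 2 are trimers that bind CD47 and inhibit blood vessel growth, and thrombospondin 1 also activates latent TGF-beta. Thrombospondin 3, thrombospondin 4 and Comp are pentamers of cartilage, tendon and muscle. Periostin, a TGF-beta-responsive protein of periosteum and periodontal ligament, assists collagen cross-linking, and Sparc is a collagen- and calcium-binding protein that is abundant in bone.

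Promoter windows are shown for 4 genes on which the results below turn: Tnn and Postn, which had the largest rises in normoxic and hypoxic chondrocyte and osteoblast cultures and in normoxic smooth muscle cultures, Tnc, whose response to low oxygen differed in sign between cultures, and Tnxb, which did not follow the others. Each is the 250 bases before the RefSeq transcription start (GRCm38.p6), 5′ to 3′ on the gene's strand, in lower case, with matches to the searched motifs in capitals. The motifs were the hypoxia response element core (ACGTG or GCGTG), the AP-1 site (TGACTCA) and the TATA box (TATAAA), on both strands. The windows lie at chr4:64047016-64047265, minus strand (Tnc), chr1:160153576-160153825, minus strand (Tnn), chr17:34670285-34670534, plus strand (Tnxb) and chr3:54360857-54361106, plus strand (Postn).
Tnc: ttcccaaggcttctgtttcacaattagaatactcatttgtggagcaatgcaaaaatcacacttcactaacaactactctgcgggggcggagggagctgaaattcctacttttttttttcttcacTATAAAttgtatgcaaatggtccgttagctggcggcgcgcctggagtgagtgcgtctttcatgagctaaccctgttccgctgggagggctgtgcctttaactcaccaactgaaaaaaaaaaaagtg
Tnn: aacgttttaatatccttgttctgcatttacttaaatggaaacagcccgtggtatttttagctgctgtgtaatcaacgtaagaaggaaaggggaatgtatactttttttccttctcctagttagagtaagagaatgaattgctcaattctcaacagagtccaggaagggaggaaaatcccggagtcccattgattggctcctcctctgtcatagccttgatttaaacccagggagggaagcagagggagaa
Tnxb: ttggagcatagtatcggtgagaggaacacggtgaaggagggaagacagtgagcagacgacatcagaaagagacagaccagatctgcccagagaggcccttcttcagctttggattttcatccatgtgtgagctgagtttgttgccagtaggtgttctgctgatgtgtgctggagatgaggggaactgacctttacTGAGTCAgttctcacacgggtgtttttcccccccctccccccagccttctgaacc
Postn: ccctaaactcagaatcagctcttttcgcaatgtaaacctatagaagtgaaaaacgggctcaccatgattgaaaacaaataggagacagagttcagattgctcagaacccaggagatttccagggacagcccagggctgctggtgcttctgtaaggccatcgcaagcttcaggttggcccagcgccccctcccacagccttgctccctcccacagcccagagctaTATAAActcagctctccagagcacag
The Postn window holds a TATA box whose first base lies 26 bases before the start. The Tnc window holds a TATA box 126 bases before the start, and the Tnxb window holds an AP-1 match on the other strand 55 bases before it. The Tnn window holds none of these motifs. Of the 10 genes, 8 matched a RefSeq promoter entry by symbol, and Thbs1 and Comp did not. Among the other windows, Thbs2 has a TATA box and Thbs4 a hypoxia response element core, and Thbs3 and Sparc hold no match. Of 32841 RefSeq windows of the same length, 38.6% hold a hypoxia response element core, 4.46% an AP-1 site and 12.4% a TATA box. These matches describe letters and not sites of binding.

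In the GENCODE annotation of GRCm38, Tnc (ENSMUSG00000028364) lies on chromosome 4 from 63959785 to 64047015, Tnn (ENSMUSG00000026725) on chromosome 1 from 160085029 to 160153580, and Tnxb (ENSMUSG00000033327) on chromosome 17 from 34670535 to 34719815. Thbs1 (ENSMUSG00000040152) lies on chromosome 2 from 118111876 to 118127133, Thbs2 (ENSMUSG00000023885) on chromosome 17 from 14665500 to 14694235, Thbs3 (ENSMUSG00000028047) on chromosome 3 from 89215180 to 89226837, Thbs4 (ENSMUSG00000021702) on chromosome 13 from 92751590 to 92794818 and Comp (ENSMUSG00000031849) on chromosome 8 from 70373558 to 70382066. Postn (ENSMUSG00000027750) lies on chromosome 3 from 54361109 to 54391037 and Sparc (ENSMUSG00000018593) on chromosome 11 from 55394500 to 55423183. Exons of 4 genes overlap a gene on the opposite strand, and the use of strand in counting is not given in the sources used here. Thbs3 shares 318 exon bases with Mtx1, which had 22255 counts over the 28 libraries against 42401 for Thbs3, so the Thbs3 values may include reads of its neighbour. The other overlaps were 208 bases of Thbs1 with Gm29233 (17825 counts against 4554573), 176 bases of Tnc with 8030451A03Rik and 3 bases of Tnxb with Cyp21a2-ps.

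Library totals lay between 19869271 and 64693346 counts. The 3 hypoxic smooth muscle libraries stood apart from the other 25. The mitochondrial ribosomal RNAs mt-Rnr1 and mt-Rnr2 took 11.6% to 13.3% of their counts, against 0.0252% to 0.0889% elsewhere, and their TMM scaling factors were 0.505 to 0.533, against 0.901 to 1.29. Normoxic osteoblast replicate 4 also stood apart from its group: over all genes, the chi-square per degree of freedom of its counts against each other replicate was 91.1 to 97.1, against 2.89 to 3.88 among replicates 1 to 3. The same measure was 18.3 to 22.3 for replicate 4 of normoxic proliferating cells, against 5.18 to 5.83 among the others. For replicate 4 of normoxic smooth muscle cultures it was 14 to 20.2, against 6.1 to 7.94. In normoxic chondrocyte cultures it was 8.58 between replicates 2 and 3 and 27.8 to 36.5 for every other pair. Hypoxic chondrocyte replicate 1 was at 31.6 and 28.1 against replicates 2 and 3, with 9.93 between those. Summed over 5 leukocyte markers the level of the hypoxic smooth muscle libraries was 33.6 to 37.4 CPM, against at most 5.85 CPM elsewhere; 1 of the 5 (Cd68) exceeded 1 CPM, and Adgre1 and Cd3e were at 0. Of 5 neural crest markers, Foxd3 was at 0 in all 28 libraries and Sox10 had 1 count, while the other 3 exceeded 1 CPM in every group. The 5 chondrocyte markers summed to 2790 to 8420 CPM in normoxic and 842 to 1250 CPM in hypoxic chondrocyte cultures. The 5 osteoblast markers summed to 62.7 to 146 CPM in normoxic osteoblast cultures, near the 58.4 to 67.4 CPM of proliferating cells and far under the 1050 to 2550 CPM of normoxic chondrocyte cultures, so the label osteoblast has little support from these markers there; in hypoxic osteoblast cultures they summed to 366 to 393 CPM. The 5 smooth muscle markers summed to 3530 to 3990 CPM in normoxic smooth muscle and 3560 to 5100 CPM in normoxic osteoblast cultures, but to 94.8 to 119 CPM in hypoxic smooth muscle cultures, where proliferating cells had 94.1 to 103 CPM at 21% O2 and 191 to 195 CPM at 0.5% O2. The groups are called by their labels below.

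Together the 10 genes took 0.120% ± 0.00136 (SD, n = 4) of all counts in normoxic proliferating cells and 3.78% ± 0.199, 4.21% ± 0.153 and 1.26% ± 0.0199 in normoxic chondrocyte, osteoblast and smooth muscle cultures (n = 4 each). At 0.5% O2 their share was 0.166% ± 0.000619 in proliferating, 3.96% ± 0.161 in chondrocyte, 2.51% ± 0.0793 in osteoblast and 0.0467% ± 0.000992 in smooth muscle cultures (n = 3 each). The ranges of the normoxic and hypoxic libraries overlapped in chondrocyte cultures and in no other culture. In bulk RNA, fewer cells that express a gene and less RNA per cell cannot be told apart. Levels below are in CPM, counts per 1e+06 counts of the TMM-scaled library, given for single libraries in the order of their replicate numbers.

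**Figure D1:**
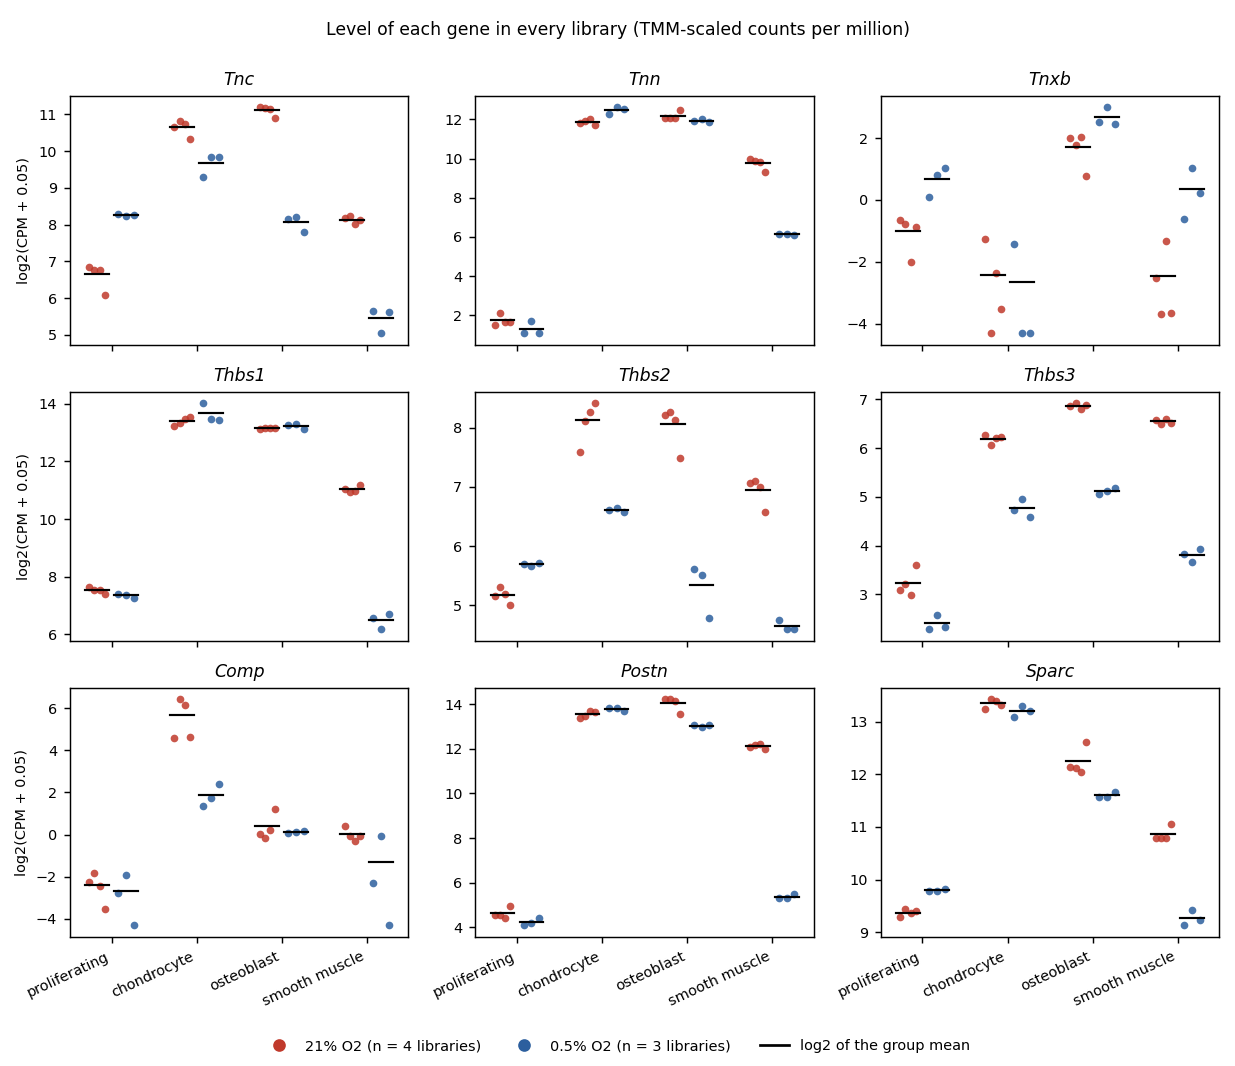
Level of each gene in every library, as log2 of CPM plus 0.05, for 4 cultures at 21% O2 (red, 4 libraries) and 0.5% O2 (blue, 3 libraries), with a line at the group mean. Thbs4, with 3 counts in the 28 libraries, is not drawn. Tnn, Thbs1 and Postn are high in chondrocyte and osteoblast cultures at both oxygen levels, and in hypoxic smooth muscle cultures Postn is at 39.41 to 44.75 CPM.

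Tnc, the tenascin of condensing mesenchyme, was at 115.5, 109.4, 109.4 and 68.25 CPM in normoxic proliferating libraries and at 313.6, 303.6 and 305.3 CPM in hypoxic ones. It reached 1618, 1795, 1718 and 1280 CPM in normoxic and 626.8, 921.6 and 909.8 CPM in hypoxic chondrocyte cultures, and 2346, 2331, 2261 and 1907 CPM in normoxic osteoblast cultures. Hypoxic osteoblast cultures had 281.6, 297.4 and 221.3 CPM. Low oxygen therefore went with more Tnc in proliferating cells and with less in the chondrocyte and osteoblast cultures, with no overlap of libraries in any of the 3. Smooth muscle libraries had Tnc at 290.7, 300.0, 257.7 and 277.1 CPM at 21% O2 and at 49.89, 32.72 and 49.38 CPM at 0.5% O2, the lowest of the 8 groups. In the order of group means, normoxic smooth muscle and hypoxic osteoblast cultures overlapped, and every other pair of neighbours was separated.

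Tnn, which encodes the tenascin of periosteum and bone-forming mesenchyme, was close to silent before differentiation. It was at 2.744, 4.269, 3.082 and 3.116 CPM in normoxic and 2.048, 3.198 and 2.089 CPM in hypoxic proliferating libraries. Chondrocyte cultures had 3591, 3868, 4100 and 3390 CPM at 21% O2 and 4887, 6305 and 5870 CPM at 0.5% O2, and osteoblast cultures had 4346, 4323, 4237 and 5703 CPM and 3885, 4101 and 3710 CPM. These 4 groups overlapped in part, with all hypoxic chondrocyte libraries above all normoxic ones and all hypoxic osteoblast libraries below all normoxic ones. Normoxic smooth muscle cultures had 1003, 939.8, 910.5 and 632.7 CPM. Hypoxic smooth muscle cultures had 71.87, 71.23 and 68.01 CPM, above every proliferating library and below every other differentiated one.

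Tnxb, the tenascin of collagen fibrils, was the only member tested whose level fell in a normoxic comparison with proliferating cells. Its counts were low, with 0 to 12 in normoxic chondrocyte and 148 to 232 in hypoxic osteoblast libraries. Its group means ran from 0.1074 ± 0.186 CPM (SD, n = 3) in hypoxic chondrocyte to 6.387 ± 1.381 CPM (SD, n = 3) in hypoxic osteoblast cultures. Normoxic osteoblast libraries were at 3.948, 3.392, 4.035 and 1.666 CPM and hypoxic ones at 5.729, 7.973 and 5.457 CPM, above all chondrocyte libraries, of which none exceeded 0.3704 CPM and 3 of 7 had no count. Proliferating libraries were at 0.1989 to 0.5918 CPM at 21% O2 and at 1.008 to 1.986 CPM at 0.5% O2. Smooth muscle libraries were at 0.02686 to 0.3481 CPM at 21% O2 and at 0.6002 to 1.995 CPM at 0.5% O2, so that low oxygen went with more Tnxb in proliferating, osteoblast and smooth muscle cultures, with no overlap between the oxygen levels. By library size alone the smooth muscle ranges overlapped (0.03457 to 0.4488 CPM and 0.3196 to 1.007 CPM, on 1 to 12 and 8 to 20 counts).

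Thbs1, the thrombospondin that activates latent TGF-beta, was among the most abundant members. It was at 197.8, 183.7, 187.0 and 168.1 CPM in normoxic proliferating and at 167.7, 166.5 and 153.8 CPM in hypoxic proliferating libraries. Chondrocyte cultures had 9683, 10330, 11260 and 12040 CPM at 21% O2 and 16680, 11310 and 11180 CPM at 0.5% O2. Osteoblast cultures had 8945, 9097, 9249 and 9182 CPM and 9883, 10110 and 9061 CPM. Normoxic and hypoxic libraries overlapped in chondrocyte and in osteoblast cultures. In smooth muscle cultures Thbs1 was at 2117, 1976, 1993 and 2325 CPM at 21% O2 and at 94.00, 71.73 and 104.8 CPM at 0.5% O2, where all 3 libraries lay below every proliferating library.

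Thbs2, the second trimeric thrombospondin, had a narrower range, with a 11.2-fold gap between its highest and lowest group means. It was at 32.07 to 39.80 CPM in normoxic proliferating cells, 193.4 to 341.7 CPM in chondrocyte, 180.7 to 306.3 CPM in osteoblast and 95.14 to 137 CPM in smooth muscle cultures at 21% O2. At 0.5% O2 the ranges were 50.52 to 52.66 CPM in proliferating, 95.04 to 99.83 CPM in chondrocyte, 27.64 to 48.66 CPM in osteoblast and 24.04 to 26.78 CPM in smooth muscle cultures. All hypoxic osteoblast and smooth muscle libraries were thus below all hypoxic proliferating ones. The pentameric Thbs3 was at 7.855 to 12.12 CPM in normoxic and 4.812 to 5.929 CPM in hypoxic proliferating cells. Its normoxic ranges were 67.13 to 76.99 CPM in chondrocyte, 111.3 to 121.3 CPM in osteoblast and 89.83 to 97.04 CPM in smooth muscle cultures, and its hypoxic ranges were 23.92 to 31.11, 33.33 to 36.16 and 12.67 to 15.29 CPM. No neighbouring groups overlapped for Thbs3, and each hypoxic group lay below its normoxic counterpart. By library size alone, hypoxic smooth muscle libraries (6.392 to 7.902 CPM of Thbs3) overlapped hypoxic proliferating ones (5.547 to 6.905 CPM) and lay below normoxic proliferating ones (9.145 to 14.47 CPM).

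Comp, a thrombospondin of cartilage and tendon, was above 2.243 CPM in chondrocyte libraries alone. Normoxic chondrocyte libraries were at 24.23, 86.46, 71.55 and 24.82 CPM and hypoxic ones at 2.545, 3.308 and 5.159 CPM. The other groups had means between 0.1044 ± 0.108 CPM (SD, n = 3) in hypoxic proliferating cells and 1.292 ± 0.6448 CPM (SD, n = 4) in normoxic osteoblast cultures, and neighbouring groups in that range overlapped. Within normoxic chondrocyte cultures, Comp was lower in replicates 1 and 4 than in replicates 2 and 3. Thbs4 had 3 counts in all, 1 in normoxic chondrocyte replicate 3 and 2 in hypoxic osteoblast replicate 1, and was tested in no comparison.

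Postn reached the highest CPM of any member, on a scale not divided by gene length. It was at 23.65, 23.12, 21.31 and 30.85 CPM in normoxic proliferating and at 16.81, 17.93 and 21.47 CPM in hypoxic proliferating libraries. Normoxic chondrocyte libraries had 10690, 11240, 13430 and 13010 CPM, and hypoxic ones had 14710, 14610 and 13460 CPM. The hypoxic libraries all lay above the normoxic ones there, though by little, and the difference was not called in the test given below. Osteoblast cultures had 19210, 19260, 18000 and 12210 CPM at 21% O2 and 8690, 8087 and 8534 CPM at 0.5% O2. Smooth muscle cultures had 4362, 4669, 4743 and 4114 CPM at 21% O2 and 40.06, 39.41 and 44.75 CPM at 0.5% O2, so that the hypoxic libraries were above all proliferating libraries and far below the normoxic smooth muscle ones. By library size alone the hypoxic Postn range was 19.88 to 23.13 CPM, below normoxic proliferating libraries (24.81 to 36.86 CPM) and overlapping hypoxic ones (19.38 to 24.63 CPM).

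Sparc was the most abundant member in proliferating cells per length, and its highest and lowest group means were 16.9-fold apart. It was at 628.6 to 692.9 CPM in normoxic and 878.5 to 906.2 CPM in hypoxic proliferating cells. Chondrocyte cultures had 9660 to 11010 CPM at 21% O2 and 8739 to 10040 CPM at 0.5% O2, which overlapped. Osteoblast cultures had 4233 to 6244 CPM and 3045 to 3228 CPM, and smooth muscle cultures 1768 to 2132 CPM and 560.3 to 689.4 CPM, in the order 21% and 0.5% O2, with no overlap in either. The lowest Sparc group was hypoxic smooth muscle, whose range overlapped that of normoxic proliferating cells.

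The first comparison asks how the genes changed on differentiation at 21% O2. All 9 members that could be tested were called in osteoblast cultures, 9 in smooth muscle and 8 in chondrocyte cultures, and nearly all of the changes were rises. Tnn, Postn and Thbs1 rose the most in osteoblast cultures, and Tnn and Postn rose the most in smooth muscle cultures. A gene is called when the adjusted p (edgeR's quasi-likelihood test, Benjamini-Hochberg over all genes tested) is under 0.05. In chondrocyte cultures 8 members rose and Tnxb was not called, and 74.9% of all 14360 genes tested were called, 37.7% higher and 37.2% lower. In osteoblast cultures 9 rose, against 78.7% of all genes called, 40.9% higher and 37.8% lower. In smooth muscle cultures 8 rose and Tnxb fell, against 79.7% of all genes called, 40.8% higher and 38.9% lower. With so large a share of all genes called, the counts of members called are near the background, and what sets the members apart from the median gene is the direction and size: their median log2 fold change was 4.07, 3.69 and 2.65 in the same order, against 0.00, 0.07 and 0.03 over all genes tested. In normoxic chondrocyte cultures the smooth muscle markers summed to 2070 to 2520 CPM and the 5 tendon markers to 1780 to 1950 CPM. Fmod made up nearly all of the tendon sum (1820 CPM). Normoxic proliferating cells had 94.1 to 103 CPM and 16.8 to 24.2 CPM. The part of these markers in the result was not tested.

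Tnn rose by 10.18 on the log2 scale in chondrocyte (SE 0.15, edgeR adjusted p = 3.91e-13), 10.49 in osteoblast (SE 0.21) and 8.05 in smooth muscle cultures (SE 0.21), or 1163-fold, 1439-fold and 265-fold. Postn rose by 9.01 (SE 0.16), 9.49 (SE 0.24) and 7.55 (SE 0.13), and Thbs1 by 5.95 (SE 0.10), 5.68 (SE 0.08) and 3.57 (SE 0.07). For Tnc the rises were 4.07 (SE 0.18), 4.51 (SE 0.17) and 1.54 (SE 0.14). For these 4 genes the smooth muscle rise was the smallest of the 3, as it was for Thbs2, Sparc and Comp. The differences between lineages were not tested here except between osteoblast and chondrocyte cultures. Thbs2 rose by 3.03 (SE 0.16), 2.94 (SE 0.16) and 1.83 (SE 0.11) and Sparc by 4.04 (SE 0.07), 2.93 (SE 0.13) and 1.54 (SE 0.07). Thbs3 rose by 3.04 (SE 0.12), 3.69 (SE 0.13) and 3.37 (SE 0.11), and was the member with the most even rise over the 3 lineages. Comp, the cartilage thrombospondin, rose by 8.36 (SE 0.75) in chondrocyte cultures and by 3.11 (SE 0.49) and 2.65 (SE 0.41) in the others, on 28 counts in all 4 proliferating libraries; without replicate 4 of the normoxic groups its osteoblast rise was 2.40. Over these called rises the largest edgeR adjusted p was 0.000213, that of Comp in osteoblast cultures.

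Tnxb rose by 2.86 in osteoblast cultures (SE 0.37, edgeR adjusted p = 5.94e-05) and fell by 1.74 in smooth muscle cultures (SE 0.61, edgeR adjusted p = 0.0164), and its difference of -1.55 in chondrocyte cultures was not called (SE 0.68, edgeR adjusted p = 0.0576). The smooth muscle call was lost without smooth muscle replicate 2 or 4 (edgeR adjusted p = 0.0579 and 0.0547), and the difference moved to -2.87 without replicate 3. The chondrocyte difference was called in 4 of 17 alternatives, with an adjusted p between 0.00571 and 0.157, and it moved to -2.74 without normoxic chondrocyte replicate 1. Scaling by library size alone moved the median of all genes to -0.35 and the share of called genes that were higher from 50.3% to 34.7% in the chondrocyte comparison, without changing the direction of any called member. In the osteoblast and smooth muscle comparisons it moved that median to -0.08 and 0.11.

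**Figure D2:**
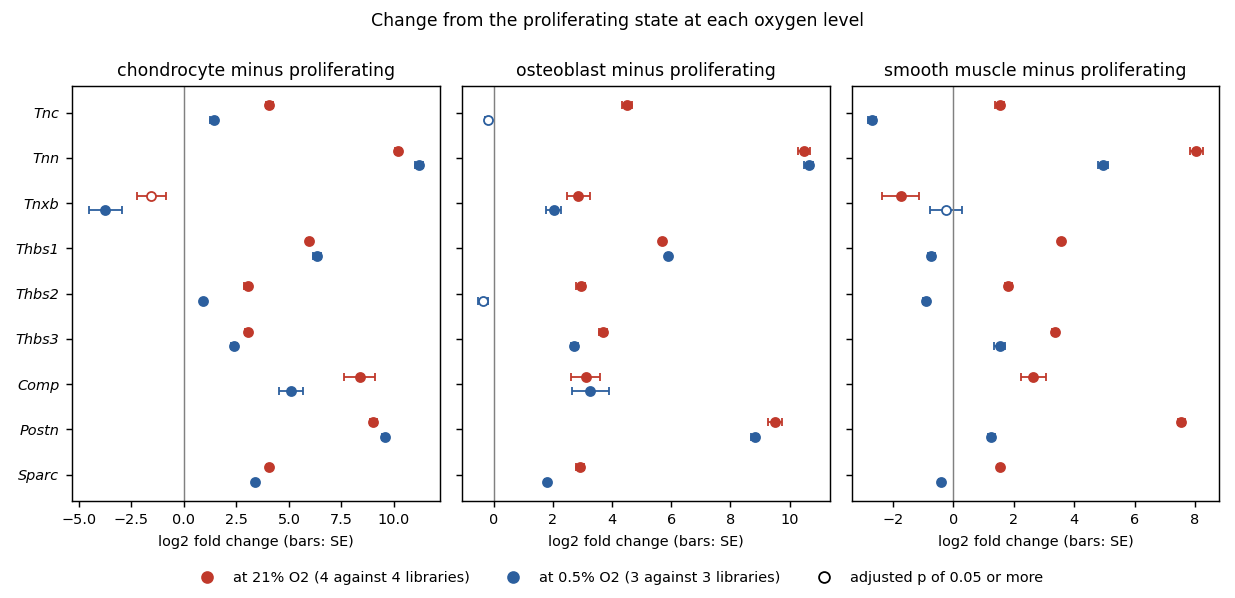
Log2 fold change of each gene from the proliferating state in chondrocyte, osteoblast and smooth muscle cultures at 21% O2 (red, 4 against 4 libraries) and 0.5% O2 (blue, 3 against 3), with bars of 1 SE and open symbols for an adjusted p of 0.05 or more; Thbs4 was not tested, nor Comp in the hypoxic smooth muscle comparison. Tnn and Postn are far to the right in chondrocyte and osteoblast cultures at both oxygen levels, while in smooth muscle cultures Tnc is at 1.54 at 21% O2 and at -2.68 at 0.5% O2. Scaled by library size alone, the hypoxic smooth muscle value of Postn is -0.01 instead of 1.26.

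At 0.5% O2 the same comparison gave 8 members higher and Tnxb lower in chondrocyte cultures, where 69.5% of all genes tested were called, 34.9% higher and 34.6% lower. In osteoblast cultures 7 members rose, and Tnc and Thbs2 were not called, where 71.3% of all genes were called, 36.2% higher and 35.1% lower. In smooth muscle cultures 3 members rose and 4 fell, where 70% of all genes were called, 33.8% higher and 36.2% lower, and Comp and Thbs4 were not tested. The members' median log2 fold change was 3.40, 2.72 and -0.32, against -0.02, 0.00 and -0.07 over all genes. Counted in either direction the calls are again close to the background, and most of them outside smooth muscle cultures are rises.

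Tnn rose by 11.18 (SE 0.20, edgeR adjusted p = 2.04e-10) in hypoxic chondrocyte and 10.64 (SE 0.14) in hypoxic osteoblast cultures, and Postn by 9.56 (SE 0.12) and 8.81 (SE 0.11). Thbs1 rose by 6.32 (SE 0.19) and 5.89 (SE 0.09), Thbs3 by 2.37 (SE 0.13) and 2.72 (SE 0.12) and Sparc by 3.40 (SE 0.07) and 1.80 (SE 0.06). These 5 genes kept a clear rise in chondrocyte and osteoblast cultures at low oxygen. Tnc, by contrast, rose by only 1.41 (SE 0.15) in chondrocyte cultures and differed by -0.21 (SE 0.09, edgeR adjusted p = 0.0538) in osteoblast cultures, and Thbs2 rose by 0.91 (SE 0.06) and differed by -0.35 (SE 0.17, edgeR adjusted p = 0.0825). The osteoblast differences of Tnc and Thbs2 were called as falls in 7 and 5 of 15 alternatives, with adjusted p-values of 0.000762 to 0.316 and 0.00116 to 0.144. Comp rose by 5.10 (SE 0.56) and 3.27 (SE 0.62), on 9 counts in the 3 proliferating libraries, and without hypoxic proliferating replicate 2 these values were 6.08 and 4.26. Tnxb rose by 2.03 (SE 0.25) in osteoblast cultures and fell by 3.74 (SE 0.80, edgeR adjusted p = 0.00152) in chondrocyte cultures, where replicate 1 holds all 10 of its counts and the value without it was -8.49. By limma-voom the Tnxb fall was -4.98, and without chondrocyte replicate 3 it was -3.14. Scaling by library size alone moved the share of called genes that were higher from 50.2% to 31.8% in the chondrocyte and from 50.8% to 38.2% in the osteoblast comparison, and the medians of all genes to -0.35 and -0.23.

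In hypoxic smooth muscle cultures only Tnn (4.97, SE 0.16), Thbs3 (1.54, SE 0.18) and Postn (1.26, SE 0.12) rose. Tnc fell by 2.68 (SE 0.14, edgeR adjusted p = 1.17e-08), Thbs2 fell by 0.92 (SE 0.10), Thbs1 fell by 0.73 (SE 0.12) and Sparc fell by 0.41 (SE 0.08), and Tnxb differed by -0.24 (SE 0.53, edgeR adjusted p = 0.703). The choice of scaling changed these values. With library sizes alone, the median of all genes moved from -0.07 to -1.35, and the part of the called genes with a higher level fell from 48.3% to 15.0%. On that scale Tnn was at 3.69, Thbs3 at 0.26 (edgeR adjusted p = 0.212, not called), Postn at -0.01 (edgeR adjusted p = 0.933, with the sign turned), Tnc at -3.95, Tnxb at -1.52 (edgeR adjusted p = 0.0191, called as a fall), Thbs2 at -2.20, Thbs1 at -2.004 and Sparc at -1.69. The rises of Thbs3 and Postn thus did not hold on that scale, whereas the rise of Tnn and the falls of Tnc, Thbs1, Thbs2 and Sparc did. With mitochondrial and small noncoding RNAs left out before the fit, every member value in this comparison kept its direction and its side of the threshold, and the median of all genes stayed at -0.07. The part of the leukocyte marker Cd68 in these values was not tested.

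Whether the change on differentiation depended on oxygen was tested by an interaction, the log2 fold change from the proliferating state at 0.5% O2 minus that at 21% O2, in a fit of the 4 groups concerned. For chondrocyte cultures 2 members were called with a larger change at 0.5% O2 and 4 with a smaller one, where 43.5% of all genes tested were called, 21.6% higher and 21.9% lower. For osteoblast cultures 1 was called higher and 5 lower, where 54.2% of all genes were called, 28.9% higher and 25.3% lower. For smooth muscle cultures 7 members were called, each lower, where 70.4% of all genes were called, 34.9% higher and 35.5% lower. The members' median interaction was -0.64, -0.78 and -2.77, against -0.03, 0.00 and -0.04 over all genes.

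Tnc had the largest loss among the tenascins in osteoblast cultures, with interactions of -2.63 (SE 0.26) in chondrocyte, -4.68 (SE 0.22, edgeR adjusted p = 6.8e-10) in osteoblast and -4.24 (SE 0.23) in smooth muscle cultures. Thbs2 followed the same order, with -2.09 (SE 0.20), -3.24 (SE 0.27) and -2.77 (SE 0.15). Thbs3 had -0.64 (SE 0.18), -0.93 (SE 0.17) and -1.85 (SE 0.18), and Sparc -0.62 (SE 0.10), -1.08 (SE 0.15) and -1.97 (SE 0.11). For these 4 genes the change from the proliferating state was lower at low oxygen in each lineage. In chondrocyte cultures the rise of Tnn and Postn from the proliferating state was larger at 0.5% O2, by 1.03 (SE 0.23, edgeR adjusted p = 0.00155) and 0.59 (SE 0.17, edgeR adjusted p = 0.00882). An interaction also holds the oxygen difference of the proliferating cells. Postn differed with oxygen by 0.23 in chondrocyte cultures (not called) and by -0.34 in proliferating cells. For Sparc these values were -0.15 (not called) and 0.48, and for Tnc -0.97 and 1.67. In osteoblast cultures Tnn was not called (0.19, SE 0.24, edgeR adjusted p = 0.516) and Postn was at -0.64 (SE 0.21, edgeR adjusted p = 0.0189), a call that was lost without hypoxic proliferating replicate 3 (edgeR adjusted p = 0.0654). For smooth muscle, Postn, Thbs1 and Tnn had -6.31 (SE 0.16), -4.32 (SE 0.14) and -3.10 (SE 0.28).

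Thbs1 differed little by oxygen in the other lineages. Its interaction was 0.40 (SE 0.17, edgeR adjusted p = 0.0635, not called) in chondrocyte and 0.25 (SE 0.10, edgeR adjusted p = 0.0456) in osteoblast cultures, and the second call was lost in 15 of 23 alternatives, with an adjusted p between 0.00162 and 0.3. It was lost without each of 11 libraries in turn, where the interaction lay between 0.21 and 0.28. The first was called without normoxic chondrocyte replicate 4, hypoxic chondrocyte replicate 2 or hypoxic chondrocyte replicate 3 (edgeR adjusted p = 0.0442, 0.0281 and 0.0243) and with replicates 1 to 3 alone (edgeR adjusted p = 0.0489). No interaction was called for Comp or Tnxb, whose SE ranged from 0.48 to 2.33. The Comp interaction for chondrocyte cultures (-3.23, edgeR adjusted p = 0.299) was called by the DESeq2 Wald test (-3.41, adjusted p = 0.00414), with an adjusted p between 0.00414 and 0.689 over 22 alternatives. For Tnxb the chondrocyte interaction was called without hypoxic chondrocyte replicate 1 (-7.11), the osteoblast one without normoxic osteoblast replicate 4 (-0.99) and the smooth muscle one without normoxic smooth muscle replicate 3 (2.58). For smooth muscle, scaling by library size alone moved the median of all genes to -1.37 and the share of called genes that were higher from 49.6% to 16.6%, and the 7 called members were then lower, from -3.18 for Thbs3 to -7.64 for Postn. For osteoblast cultures the median moved to -0.12.

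The direct comparison of oxygen levels within a culture used the same libraries, so its values are not independent of those above. In proliferating cells 4 members were higher and 2 lower at 0.5% O2, where 65.4% of all genes tested were called, 33.1% higher and 32.3% lower. In chondrocyte cultures 1 was higher and 4 were lower, where 22.2% of all genes were called, 10.4% higher and 11.8% lower. In osteoblast cultures 1 was higher and 5 were lower, where 54.3% of all genes were called, 27% higher and 27.3% lower. In smooth muscle cultures 1 was higher and 7 were lower, where 75.6% of all genes were called, 35.4% higher and 40.2% lower. The members' median was 0.18, -0.56, -0.65 and -2.61, against 0.01, -0.01, -0.03 and -0.12 over all genes. Counted in either direction, 6 of 8, 5 of 8, 6 of 9 and 8 of 9 members tested were called. The 3157 genes called in chondrocyte cultures fell to 2091 without hypoxic chondrocyte replicate 3.

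**Figure D3:**
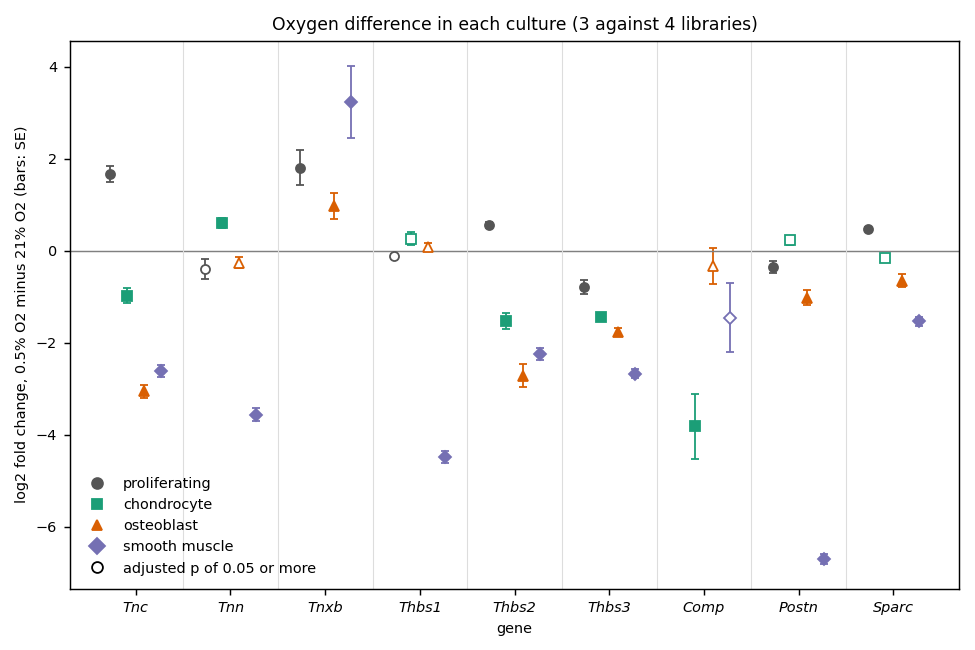
Log2 fold change of each gene at 0.5% O2 against 21% O2 within each culture (3 against 4 libraries), with bars of 1 SE and open symbols for an adjusted p of 0.05 or more; Thbs4 was not tested, nor Comp in proliferating cells, nor Tnxb in chondrocyte cultures. Tnc and Thbs2 are above 0 in proliferating cells and below 0 in the 3 differentiated cultures, Tnxb is above 0 wherever it was tested, and Postn in smooth muscle cultures is lowest at -6.69. Scaled by library size alone, no called value in the plot changes sign.

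In proliferating cells at 0.5% O2 Tnxb rose by 1.80 (SE 0.38), Tnc by 1.67 (SE 0.17, edgeR adjusted p = 9.93e-05), Thbs2 by 0.57 (SE 0.07) and Sparc by 0.48 (SE 0.04) on the log2 scale. Marker sums also differed between the oxygen levels without overlap. The chondrocyte markers summed to 104 to 143 CPM at 21% O2 and 205 to 219 CPM at 0.5% O2. The smooth muscle markers summed to 94.1 to 103 CPM and 191 to 195 CPM. That rise was nearly all Smtn (means of 48.9 and 153 CPM), while Acta2 was lower at 0.5% O2 (41.8 and 29.4 CPM). Tagln was at 8.92 and 10.3 CPM. The leukocyte markers summed to 2.29 to 3.19 CPM and 5.43 to 5.85 CPM. Most of that was Cd68 (means of 2.02 and 5.17 CPM), while Csf1r was lower at 0.5% O2 (0.454 and 0.242 CPM). The Schwann or glial markers summed to 1.61 to 2.13 CPM and 4.68 to 7.5 CPM. The part of all these markers in the result was not tested. Thbs3 fell by 0.79 (SE 0.16, edgeR adjusted p = 0.000693) and Postn fell by 0.34 (SE 0.13, edgeR adjusted p = 0.0361). The Postn call was lost without normoxic proliferating replicate 1 and without hypoxic proliferating replicate 1 or 2 (edgeR adjusted p = 0.052, 0.143 and 0.114). Tnn (-0.39, SE 0.22) and Thbs1 (-0.12, SE 0.06) were not called, with edgeR adjusted p-values of 0.139 and 0.0786. Thbs1 was called as a fall in 5 alternatives, 1 of them without normoxic proliferating replicate 4 (edgeR adjusted p = 0.00132), and its adjusted p over 17 alternatives ran from 0.000637 to 0.279. Tnn was called as a fall without hypoxic proliferating replicate 2 (-0.63, edgeR adjusted p = 0.0368) and with all 8 groups in 1 fit (edgeR adjusted p = 0.0455).

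In chondrocyte cultures Tnn was the single member to rise, by 0.60 (SE 0.10, edgeR adjusted p = 0.00172). Thbs2 fell by 1.53 (SE 0.17), Thbs3 fell by 1.44 (SE 0.10), Tnc fell by 0.97 (SE 0.16, edgeR adjusted p = 0.00266) and Comp fell by 3.81 (SE 0.70, edgeR adjusted p = 0.0145). The Comp call was lost with limma-voom (adjusted p = 0.0745) and with edgeR without hypoxic chondrocyte replicate 1 or 2 (adjusted p = 0.0649 and 0.0579), and its adjusted p over 17 alternatives ran from 2.16e-09 to 0.0745. Col2a1, the main collagen of cartilage and a binding partner of Comp, was at 3510 ± 2340 CPM (SD, n = 4) at 21% O2 and 274 ± 90.4 CPM (SD, n = 3) at 0.5% O2 in the same cultures, and its part in the result was not tested. The 5 tendon markers summed to 1780 to 1950 CPM and 2210 to 2740 CPM, nearly all of it Fmod (1820 ± 72.8 and 2400 ± 259 CPM), with Mkx lower at 0.5% O2, Kera at or near 0 and Tnmd at 0. Thbs1 (0.26, SE 0.14), Postn (0.23, SE 0.10) and Sparc (-0.15, SE 0.09) were not called (edgeR adjusted p = 0.217, 0.12 and 0.244). Scaling by library size alone moved the share of called genes that were higher from 46.9% to 31.8%.

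In osteoblast cultures Tnc fell by 3.05 (SE 0.14, edgeR adjusted p = 4.62e-07), the largest fall of a member there. The 5 adipocyte markers moved with these values, from a sum of 9.07 to 17 CPM at 21% O2 to 55.7 to 60.2 CPM at 0.5% O2, with Pparg and Fabp4 higher, Cebpa lower and Adipoq at 0 at both oxygen levels. The smooth muscle markers summed to 3560 to 5100 CPM at 21% O2 and to 2160 to 2430 CPM at 0.5% O2. The osteoblast markers summed to 62.7 to 146 CPM and 366 to 393 CPM. For the endothelial markers the sums were 8.27 to 22.9 CPM and 1.12 to 2.75 CPM. Most of that fall was Erg (means of 12.3 and 0.0117 CPM). Pecam1 (0.81 and 1.71 CPM), Kdr and Cdh5 had higher means at 0.5% O2. The chondrocyte markers ranged widely at 21% O2, from 179 to 1450 CPM, and summed to 588 to 631 CPM at 0.5% O2. The part of these markers in the result was not tested. Thbs2 fell by 2.71 (SE 0.25), Thbs3 fell by 1.75 (SE 0.08), Postn fell by 1.02 (SE 0.16) and Sparc fell by 0.65 (SE 0.15). Tnxb rose by 0.97 (SE 0.29, edgeR adjusted p = 0.0186), a call that was lost without hypoxic osteoblast replicate 2 (edgeR adjusted p = 0.0879) and with all 8 groups in 1 fit (edgeR adjusted p = 0.122). Tnn (-0.26, SE 0.13), Thbs1 (0.09, SE 0.09) and Comp (-0.33, SE 0.38) were not called (edgeR adjusted p = 0.119, 0.45 and 0.488). Tnn was called as a fall without normoxic osteoblast replicate 4 (-0.14, edgeR adjusted p = 0.0444) and under library sizes alone (-0.41, edgeR adjusted p = 0.0256). Without that same library, which stands apart, Comp was at 0.08. The 5 falls kept their calls and direction in every alternative run. Scaling by library size alone moved the median of all genes from -0.03 to -0.19 and the share of called genes that were higher from 49.6% to 36.9%, and Thbs1 was then at -0.07.

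In smooth muscle cultures Postn fell by 6.69 (SE 0.10, edgeR adjusted p = 9.65e-16), or 103.4-fold, Thbs1 fell by 4.48 (SE 0.13), Tnn fell by 3.57 (SE 0.14), Thbs3 fell by 2.67 (SE 0.10), Tnc fell by 2.61 (SE 0.13), Thbs2 fell by 2.24 (SE 0.13) and Sparc fell by 1.53 (SE 0.10). Tnxb rose by 3.23 (SE 0.79, edgeR adjusted p = 0.00175), and Comp, at -1.45 (SE 0.75, edgeR adjusted p = 0.0937), was not called. The smooth muscle genes Acta2 and Tagln moved with these falls, Acta2 from 3260 ± 213 CPM (SD, n = 4) to 20.9 ± 8.28 CPM (SD, n = 3) and Tagln from 293 ± 13.9 to 13.2 ± 1.54 CPM. Their part in the result was not tested. Scaled by library size alone, the median over all genes went from -0.12 to -1.49, and higher levels made up 15.6% of the calls against 46.8%; the falls were then larger, from -2.90 for Sparc to -8.06 for Postn, Tnxb was at 1.87 (edgeR adjusted p = 0.0381) and Comp was called at -2.81. Comp was also called with limma-voom (-2.21) and without hypoxic smooth muscle replicate 2 (-3.43).

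Osteoblast and chondrocyte cultures, which share the first days in osteoblast medium, differed at 21% O2 in 7 members, 5 higher and 2 lower in osteoblast cultures, where 59.7% of all genes tested were called, 31.1% higher and 28.6% lower. Comp was lower by 5.27 on the log2 scale in osteoblast cultures (-5.27, SE 0.57, edgeR adjusted p = 7.75e-05; -5.92 with replicates 1 to 3 alone), and Sparc was lower (-1.08, SE 0.13). Tnxb was higher by 4.45 (SE 0.64), Thbs3 by 0.70 (SE 0.07), Postn by 0.53 (SE 0.15), Tnc by 0.49 (SE 0.12) and Tnn by 0.34 (SE 0.12, edgeR adjusted p = 0.0304). The Tnn call was lost without normoxic chondrocyte replicate 1, 2 or 4 (edgeR adjusted p = 0.0925, 0.0735 and 0.0993) and the Postn call without replicate 2 (edgeR adjusted p = 0.0518). The Tnxb value was 5.62 without normoxic chondrocyte replicate 1 and 5.07 by limma-voom. Thbs1 (-0.23, SE 0.09, edgeR adjusted p = 0.0535) was not called but was called lower in 7 of 18 alternatives, with an adjusted p between 0.0046 and 0.531, and Thbs2 (-0.05, SE 0.20, edgeR adjusted p = 0.855) was not called. Scaling by library size alone moved the median of all genes to 0.19 and the share of called genes that were higher from 52.0% to 65.7%, and Thbs2 was then at 0.11.

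At 0.5% O2 all 9 members tested differed between these cultures, 2 higher and 7 lower in osteoblast cultures, where 57.6% of all genes tested were called, 29% higher and 28.6% lower. The members' median difference was -0.76, against 0.34 at 21% O2, with -0.01 and 0.03 over all genes. Tnc was lower in hypoxic osteoblast than in hypoxic chondrocyte cultures (-1.62, SE 0.16, edgeR adjusted p = 1.09e-05), Thbs2 was at -1.27 (SE 0.18), Sparc at -1.60 (SE 0.09), Comp at -1.83 (SE 0.31), Postn at -0.76 (SE 0.09), Tnn at -0.55 (SE 0.11) and Thbs1 at -0.44 (SE 0.14, edgeR adjusted p = 0.0202). Tnxb (5.75, SE 0.62) and Thbs3 (0.34, SE 0.11, edgeR adjusted p = 0.0178) were higher. Tnc, Tnn and Postn were thus higher in osteoblast cultures at 21% O2 and lower at 0.5% O2, a reversal whose own difference was not tested. The Thbs1 call was lost without any 1 of the 3 hypoxic osteoblast libraries (edgeR adjusted p = 0.0566, 0.0504 and 0.103) and under library sizes alone (edgeR adjusted p = 0.0628), and the Thbs3 call without hypoxic chondrocyte replicate 3 (edgeR adjusted p = 0.0997). Without hypoxic chondrocyte replicate 1, which holds all counts of Tnxb in that group, its value was 10.47; without replicate 3 it was 5.15, and by limma-voom 7.04. Scaling by library size alone moved the median of all genes to 0.10.

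Levels of different genes were compared per kilobase of exon. In normoxic proliferating cells Sparc led with 175.4 ± 7.238 CPM per kilobase (SD, n = 4), ahead of Thbs1 with 30.32 ± 2.022 and Tnc with 12.95 ± 2.802. At 0.5% O2 the next places turned, with Tnc at 39.56 ± 0.6887 and Thbs1 at 26.79 ± 1.269 CPM per kilobase (SD, n = 3). Normoxic chondrocyte cultures had Sparc at 2750 ± 157.9, Thbs1 at 1783 ± 170.2 and Postn at 1389 ± 153.3 CPM per kilobase, whereas normoxic osteoblast cultures had Postn at 1973 ± 385.8, Thbs1 at 1501 ± 21.65 and Sparc at 1284 ± 245. By group mean the leading member was Sparc in proliferating and chondrocyte cultures at both oxygen levels, Postn in normoxic osteoblast and smooth muscle cultures and Thbs1 in hypoxic osteoblast cultures. In hypoxic chondrocyte cultures Sparc (2482 ± 171.6 CPM per kilobase) and Thbs1 (2150 ± 516.7) overlapped, with Thbs1 above Sparc in replicate 1. In normoxic osteoblast replicate 4 both Sparc (1648 CPM per kilobase) and Thbs1 (1512) exceeded Postn (1403). In normoxic smooth muscle cultures Postn (513.9 ± 33.33 CPM per kilobase) and Sparc (491.5 ± 47.55) did not differ beyond their spread. Hypoxic smooth muscle cultures were led by Sparc at 162.8 ± 17.44 CPM per kilobase, with all others at 14.85 CPM per kilobase or less.

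**Figure D4:**
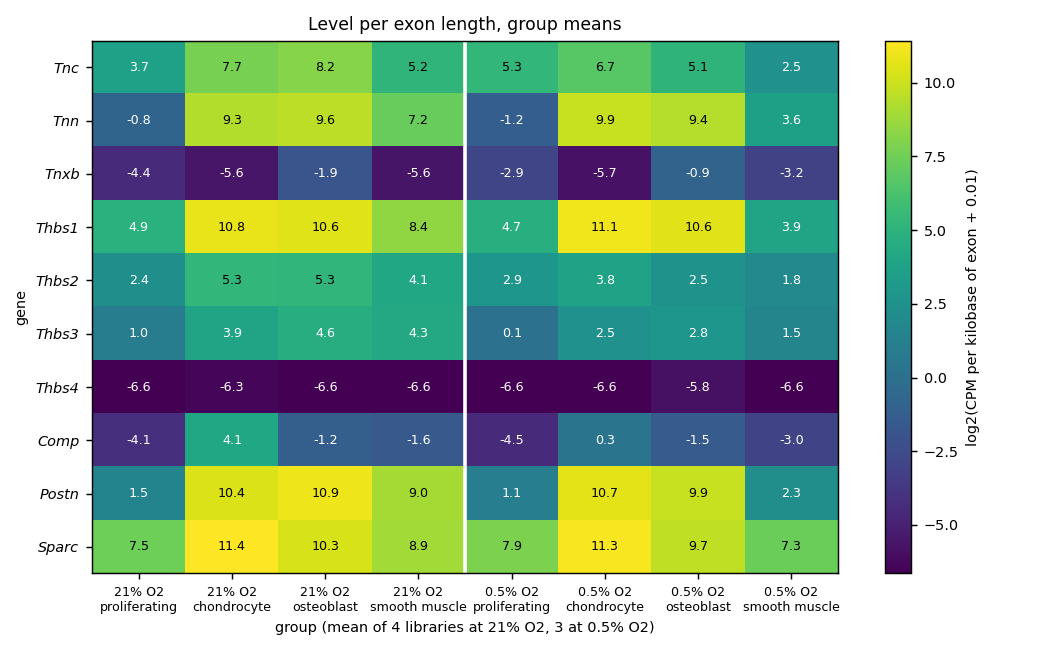
Mean level of each gene per kilobase of exon in the 8 groups (4 libraries at 21% O2, 3 at 0.5% O2), as log2 of CPM per kilobase plus 0.01, in colour and in figures. Tnn, Thbs1, Postn and Sparc are bright in the chondrocyte and osteoblast columns at both oxygen levels, Comp stands out in normoxic chondrocyte cultures (17.45 CPM per kilobase on the linear scale), and Thbs4 is dark throughout.

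Among the members themselves, Thbs1 and Postn (r = 0.972) and Tnn and Postn (r = 0.969) were most alike in log2 CPM over the 28 libraries, which fall into 8 groups and share their scaling, so these correlations describe the group pattern. With the 8 other members compared, Tnxb had correlations from -0.0825 (Tnn) to -0.425 (Comp), most of them weak. Each member with a group mean of at least 1 CPM was compared with 13427 other genes that passed the filter on low counts. Genes without a symbol or with Gm or Rik names were left out. The most alike to Postn was P4ha3 (r = 0.995), which encodes a subunit of the collagen prolyl hydroxylase. The most alike to Thbs1 was Plpp1 (r = 0.990), a lipid phosphatase gene. Tnn was most like the transcription factor gene Foxq1 (r = 0.982) and Tnc most like Ric1 (r = 0.949). Sparc was most like Tacc1 (r = 0.983), then Creb3l1 (r = 0.981), a transcription factor gene of collagen-secreting cells. Thbs2 was most like Ephb3 (r = 0.951), Thbs3 like Gxylt2 (r = 0.962), Comp like Xylt1 (r = 0.935), which encodes an enzyme that starts glycosaminoglycan chains, and Tnxb like Dtna (r = 0.858). By Spearman's correlation the first gene differed for every member, such as B4galt1 for Thbs1 (rho = 0.978, against 0.823 for Plpp1). By the 8 group means it stayed the same for Postn, Sparc and Tnxb alone.

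Genes that act with these proteins were taken from 4 lists: 17 receptors, 19 other matricellular genes, 18 matrix partners and proteases, and 14 regulators. At 21% O2, 13 of 14 receptors tested rose in chondrocyte, 12 of 14 in osteoblast and 12 of 14 in smooth muscle cultures, with median log2 fold changes of 1.91, 1.71 and 0.81 against 0.00, 0.07 and 0.03 over all genes. Of all genes 37.7%, 40.9% and 40.8% were called higher and 37.2%, 37.8% and 38.9% lower in the same order. Itgb3, an integrin subunit that binds thrombospondin and periostin, rose by 7.51 (SE 0.12) in chondrocyte cultures, and Itga8, part of an integrin that binds tenascin-C, rose by 6.15 (SE 0.32) in osteoblast cultures, while Itgb8 fell by 2.46 (SE 0.18) in chondrocyte cultures. Of the partners 17 of 18, 16 of 17 and 15 of 16 rose, with medians of 4.53, 2.86 and 1.66, and Adamts7, a protease known to cut Comp, fell by 1.78 (SE 0.10) in chondrocyte and 1.93 (SE 0.08) in osteoblast cultures. Of the other matricellular genes 13 of 16, 13 of 15 and 10 of 14 rose, with medians of 3.35, 3.28 and 1.90, among them the Sparc relative Sparcl1 by 5.60 (SE 0.15) in smooth muscle cultures, and Spp1 (osteopontin) fell by 1.00 (SE 0.12) in osteoblast cultures. Of 14 regulators 7, 9 and 9 rose and 5, 2 and 1 fell, with Tgfb2 rising by 4.58 (SE 0.17), 3.05 (SE 0.36) and 3.27 (SE 0.14). The edgeR adjusted p of these named changes was at most 1.15e-07 for the receptors and 3.01e-05 for Tgfb2.

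At 0.5% O2 most receptors, partners and other matricellular genes rose in chondrocyte and osteoblast cultures, with 12 and 11 of 14 receptors, 15 of 16 and 16 of 17 partners and 12 of 16 and 12 of 14 other matricellular genes higher, against 34.9% and 36.2% of all genes. The medians were 1.76 and 1.61 for receptors, 3.29 and 2.46 for partners and 2.05 and 1.27 for the other matricellular genes, against -0.02 and 0.00 over all genes. Of the 14 regulators 5 rose and 5 fell in chondrocyte cultures (median 0.01) and 10 rose and 4 fell in osteoblast cultures (median 0.75). In hypoxic smooth muscle cultures 5 of 14 receptors rose and 6 fell, 5 of 15 partners rose and 10 fell, and 6 of 14 other matricellular genes rose and 6 fell, where 33.8% of all genes rose and 36.2% fell. The medians were -0.39, -1.67 and 0.26 against -0.07 over all genes, a median that moved to -1.35 by library size alone; without hypoxic proliferating replicate 1 7 receptors were called instead of 11. Against normoxic smooth muscle cultures 11 of 14 receptors, 14 of 16 partners, 8 of 15 other matricellular genes and 10 of 14 regulators were lower, where 40.2% of all genes were, with medians of -1.32, -1.98, -1.02 and -1.10 against -0.12. Itga8 fell by 5.40 (SE 0.11), Col3a1 fell by 4.62 (SE 0.08) and Tgfb2 fell by 3.73 (SE 0.20), while Cd47, the receptor of thrombospondin 1, rose by 1.79 (SE 0.07) and Twist1 rose by 2.36 (SE 0.10). The members' falls in this culture thus ran beside falls of the matrix partners and regulators.

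In proliferating cells at 0.5% O2, 12 of 15 partners, 8 of 13 other matricellular genes and 8 of 14 receptors rose, where 33.1% of all genes did, with medians of 0.81, 1.10 and 0.37 against 0.01 over all genes; Lox, the collagen cross-linking enzyme, rose by 3.48 (SE 0.06) and Sdc4 by 1.71 (SE 0.05). In chondrocyte cultures 3 partners rose and 6 of 18 fell, and Egr1 fell by 2.32 (SE 0.11), with 5 of 14 regulators lower, where 10.4% of all genes were called higher and 11.8% lower. The counts of 9 receptors, 9 partners and 5 regulators called there fell to 4, 5 and 3 without hypoxic chondrocyte replicate 3, to 5 receptors and 5 partners without replicate 2, and to 3 regulators without normoxic chondrocyte replicate 2 or 3. In osteoblast cultures 5 receptors rose and 4 fell, 6 partners rose and 5 fell, and 5 other matricellular genes rose and 7 fell, of 14, 17 and 15 tested, where 27% of all genes were called higher and 27.3% lower. The medians were -0.25, -0.09 and 0.14, against -0.03 over all genes. Sparcl1 rose by 3.49 (SE 0.15) and Spp1 by 2.21 (SE 0.09) there, in the opposite direction to Sparc, Postn and Tnc. Most partners were lower in osteoblast than in chondrocyte cultures, 11 of 18 at 21% O2 and 11 of 17 at 0.5% O2. Their medians were -1.30 and -1.15, against 0.03 and -0.01 over all genes. Of all genes 28.6% were called lower at each oxygen level, and 31.1% and 29% higher. Of 14 receptors 3 were higher and 5 lower at 21% O2, and 4 and 6 at 0.5% O2. Of 16 other matricellular genes 3 were higher and 7 lower, and 7 and 9. Of 14 regulators 6 were higher and 3 lower, and 9 and 3. In the interactions 11 of 18, 7 of 17 and 14 of 16 partners and 7, 7 and 11 of 14 receptors were called lower for chondrocyte, osteoblast and smooth muscle cultures, against 21.9%, 25.3% and 35.5% of all genes. The median interactions were -1.07, -0.41 and -3.27 for the partners and -0.67, -0.63 and -1.40 for the receptors, against -0.03, 0.00 and -0.04 over all genes.

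The authors' deposited tables hold log2 fold changes for 10 pairs of groups. For the members they give 87 values that could be set beside those above, and all 87 had the same sign. The median absolute difference was 0.02 on the log2 scale and 82 lay within 0.25, with the largest difference, -2.12, for Tnxb in hypoxic chondrocyte cultures.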

How the data were processed

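RNA-seq counts per gene were deposited by the authors as raw counts for 28 libraries; per the submitters' processing notes, HISAT2 2.0.5, StringTie 1.3.3b and featureCounts 1.5.0-p3 were used with build mm10. The authors also deposited log2 fold changes with p-values, whose adjustment is not given in the sources used here. Those comparison tables also hold 70 columns named for these same libraries, which were not used. Counts were fitted here with edgeR 4.0.16 (R 4.3.3, statmod 1.5.0): TMM scaling, a filter on low counts (filterByExpr, minimum count 10, minimum total 15), robust quasi-likelihood fits on the libraries of each comparison alone, 12 pairwise comparisons and 3 interactions, and Benjamini-Hochberg adjustment over all genes tested. The SE is the log2 fold change divided by the square root of F and is approximate. DESeq2 1.42.0 and limma 3.58.1 (voom), other scalings and filters, a replicate block and left-out libraries were the alternatives. The members, the gene lists and the marker lists were chosen with earlier results of these data known. Named list genes are at most the 2 largest called rises and falls of a list in a comparison. The likeness of 2 genes is Pearson's r of log2 CPM over the 28 libraries.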

Additional observations from a re-analysis of the deposited data

Results flagged for a closer look

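In 4 of 36 groups of 4 libraries tested, 1 library lay far from the other 3, where chance flags about 1 in 20 groups. Tnc was at 68.25 CPM in normoxic proliferating replicate 4, against 109.4 to 115.5 CPM in the others. Tnn was at 5703 CPM in normoxic osteoblast replicate 4, against 4237 to 4346 CPM. Sparc was at 2132 CPM in normoxic smooth muscle replicate 4, against 1768 to 1779 CPM, and at 6244 CPM in normoxic osteoblast replicate 4, against 4233 to 4502 CPM. All 4 are replicate 4, which has no hypoxic counterpart, and the 11 comparisons that hold a normoxic group were also fitted with replicates 1 to 3 alone. Normoxic osteoblast replicate 4 stood apart over all genes, and there Postn (12210 CPM against 18000 to 19260), Thbs2 (180.7 against 282 to 306.3) and Tnxb (1.666 against 3.392 to 4.035) were lower and Comp (2.243 against 0.8282 to 1.119) was higher than in the others.

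The change on differentiation differed between the oxygen levels, by the interaction test, for 19 pairs of gene and culture. In chondrocyte cultures the differences on the log2 scale were -2.63 for Tnc, 1.03 for Tnn, -2.09 for Thbs2, -0.64 for Thbs3, 0.59 for Postn and -0.62 for Sparc. In osteoblast cultures they were -4.68 for Tnc, 0.25 for Thbs1, -3.24 for Thbs2, -0.93 for Thbs3, -0.64 for Postn and -1.08 for Sparc. Smooth muscle cultures had -4.24 for Tnc, -3.10 for Tnn, -4.32 for Thbs1, -2.77 for Thbs2, -1.85 for Thbs3, -6.31 for Postn and -1.97 for Sparc. A negative value means that the change from the proliferating state was lower at 0.5% O2 than at 21% O2.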

How the results depend on the processing

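Of 1237 values under other scalings, filters, tools and fits, 1191 kept their direction and their side of the threshold, 10 lost and 30 gained a call and 6 changed sign. Scaled by library size alone, Postn in hypoxic smooth muscle against proliferating cells was -0.0119, Thbs1 at 0.5% against 21% O2 in osteoblast cultures -0.0691 and Thbs2 in normoxic osteoblast against chondrocyte cultures 0.11. With replicates 1 to 3 alone, an alternative chosen after seeing the data, the Thbs2 value was 0.21 and Comp at 0.5% against 21% O2 in osteoblast cultures was 0.0754. Of 1113 values with 1 library left out, 1061 were unchanged in this sense, 28 lost and 17 gained a call and 7 changed sign. Over left-out libraries Tnxb in hypoxic smooth muscle against proliferating cells ran from -0.77 to 0.11, Comp between oxygen levels in osteoblast cultures from -0.50 to 0.0754, Thbs2 in normoxic osteoblast against chondrocyte cultures from -0.21 to 0.10, the Comp interaction from -0.37 to 1.198 for osteoblast and from -2.92 to 0.0454 for smooth muscle cultures, and the genes called between oxygen levels in chondrocyte cultures from 2091 to 3359. The cause of these changes was not tested. Requiring 10 counts in every library left Tnxb or Comp untested in most comparisons, since their counts are low. Counts were low for Tnxb and Thbs4 in all groups, and for Comp in all but normoxic chondrocyte cultures (682 to 2138 counts there).

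With the replicate number as a block, 125 of 132 values kept their direction and call, 2 lost a call (in normoxic osteoblast against chondrocyte cultures, Tnn with an edgeR adjusted p of 0.0851 and Postn with 0.0503), 4 gained one (among them the Comp interaction for chondrocyte cultures, -3.28, edgeR adjusted p = 0.0415), and Comp at 0.5% against 21% O2 in osteoblast cultures turned to 0.0883. The replicate numbers do not pair the libraries: deviations of same-numbered libraries correlated at -0.177 to 0.0814, so the block is given for completeness.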
